A study of Mus musculus with 10 samples.

Results

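The proteins of the cytosolic ribosome were followed at the mRNA level in mouse cortical neuron cultures that had received a control virus or one carrying Gata1. Genes were taken by symbol: Rpl or Rps with a number and at most a short suffix, the P stalk genes Rplp0 to Rplp2, and Rpsa. Symbols ending in -ps, which name pseudogenes, were left out. The rule found 87 of 40904 symbols, each with a single row. Of these, 76 are the canonical genes of ribosomal subunits, 31 of the small and 45 of the large subunit. The other 11 are second copies, of which RefSeq lists Rps3a2, Rps3a3 and Rps12l1 as pseudogenes and Rps4l as a transcribed pseudogene. Rpl13 was not analysed here, and Fau, whose ribosomal protein is made as a fusion, falls outside the symbol rule and is given further on.

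The ribosome joins amino acids into protein. Its small subunit reads the mRNA, its large subunit forms the peptide bond, and each subunit is a shell of proteins on ribosomal RNA. Ribosomal protein mRNAs begin with a tract of C and U at the 5′ end, the TOP motif, through which mTORC1 and the RNA-binding protein LARP1 control their translation. In humans, loss of 1 copy of any of several ribosomal protein genes causes Diamond-Blackfan anaemia, a failure of red cell production, and variants of GATA1, the red cell factor delivered here, cause a related disorder.

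Both groups were cultured cortical neurons of E14 embryos of the ICR strain, collected on day 11 in vitro (DIV11). The control group received AAV-Control and the other AAV-Gata1, an adeno-associated virus carrying this blood transcription factor. The labels used here do not name the promoter in the virus. With 1 mRNA library a group, the conditions could not be tested against each other and no difference could be checked in a replicate, so "higher" and "lower" compare these 2 libraries alone. The series lists 10 samples, and the other 8 hold no values for these mRNAs that were used here.

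Values are FPKM, fragments scaled to transcript length and to the mapped total. Over all symbols they added up to 476339 for the control and 476794 for the Gata1 library, whose depths are unknown. Gata1 itself was listed at 0 after the control virus and at 2.07 FPKM after AAV-Gata1. All 7 neuron markers found were detected and lower in the Gata1 library, with a summed level of 752 and 718 FPKM (Tubb3 was not analysed here). Astrocyte markers summed to 2299 and 2297 FPKM, with Gfap alone at 887 and 897 FPKM, so the cultures were not of neurons alone. Microglia markers were higher in 6 of the 6 that reached 1 FPKM (210 and 251 FPKM summed over 8). Oligodendrocyte lineage markers were lower in 5 of 7 (237 and 224 FPKM over 8). Of all genes that reached 1 FPKM, 45.3% were higher in the Gata1 library and 54.7% lower. With 1 FPKM added to both values, 5 of the 6 microglia markers were at least 1.1-fold higher, against 10.7% of all genes. At least 1.1-fold lower were 3 of the 7 neuron and 2 of the 7 oligodendrocyte lineage markers, against 13.7%. Erythroid markers summed to 3.41 and 3.37 FPKM, with Hba-a2 at 0 in both libraries. The part of these cell types in the values below was not tested, and in such bulk RNA fewer cells of a type cannot be told apart from less RNA per cell.

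Start sites of these genes are shown first, because the TOP tract lies there. RefSeq's table for GRCm38.p6 held a start site window for 62 of the 87 genes, 56 of them canonical. A window covers 250 bases before the annotated start and 50 from it on. Each line gives 30 bases in the direction of transcription, 15 before the start and 15 from it on. Capitals mark the longest run of C and T that touches the 10 bases on either side of the start, as far as it lies in the printed stretch. Rpl7a, Rpl27a and Rpl35 had the longest runs among canonical genes.
Rpl7a, chr2:26910792-26910821, plus strand: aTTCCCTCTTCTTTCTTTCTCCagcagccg
Rpl27a, chr7:109519180-109519209, plus strand: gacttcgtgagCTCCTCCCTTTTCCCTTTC
Rpl35, chr2:39005117-39005146, minus strand: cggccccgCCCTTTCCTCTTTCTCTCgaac
Rpl41, Rps12 and Rps15 were the most abundant with a window.
Rpl41, chr10:128549154-128549183, minus strand: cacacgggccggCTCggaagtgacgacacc
Rps12, chr10:23787195-23787224, minus strand: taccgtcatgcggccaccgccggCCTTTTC
Rps15, chr10:80292416-80292445, plus strand: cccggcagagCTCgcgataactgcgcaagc
Rpl39, Rpl22l1, Rps27l and Rpl31 are among the furthest apart between the libraries.
Rpl39, chrX:37085208-37085237, minus strand: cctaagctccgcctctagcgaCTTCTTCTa
Rpl22l1, chr3:28805493-28805522, plus strand: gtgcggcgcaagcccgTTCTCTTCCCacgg
Rps27l, chr9:66946071-66946100, plus strand: ccaCTCCTCCCCgccgcctctatcccggaa
Rpl31, chr1:39367836-39367865, plus strand: CTTCCTCCTCgcctccccgtgacccggaag

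Long pyrimidine runs were frequent at these start sites. A run of at least 8 bases was found in 24 of 56 canonical genes (42.9%), against 13.6% of the 9858 genes with a window that reached 1 FPKM and 13.5% of all 27025 windows. The runs ranged from 2 to 21 bases, with a median of 6, and were 21 bases in Rpl7a and 3 bases in Rpl41 and Rps15. The first base was C in 20 of 56 (35.7%), against 15.1% of those 9858 genes. Genes with and without a run of 8 stood at nearly the same level, with median FPKM of 402 and 396. Their median log2 ratios between the libraries were 0.025 (24 genes) and 0.0026 (32 genes). The annotated start is a single base, and a tract that begins a few bases off it counts only where it reaches the 10 bases on either side. Not every run counted covers the start. Of the 24 runs, those of Rpl4, Rpl31, Rpl34, Rps15a and Rps25 end before it. Those of Rpl13a, Rpl18, Rpl39, Rps12 and Rps26 begin after it. Such runs do not begin the annotated mRNA. The 42.9% is therefore not the share of genes whose run covers the start, which was not counted over all genes.

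**Figure D1:**
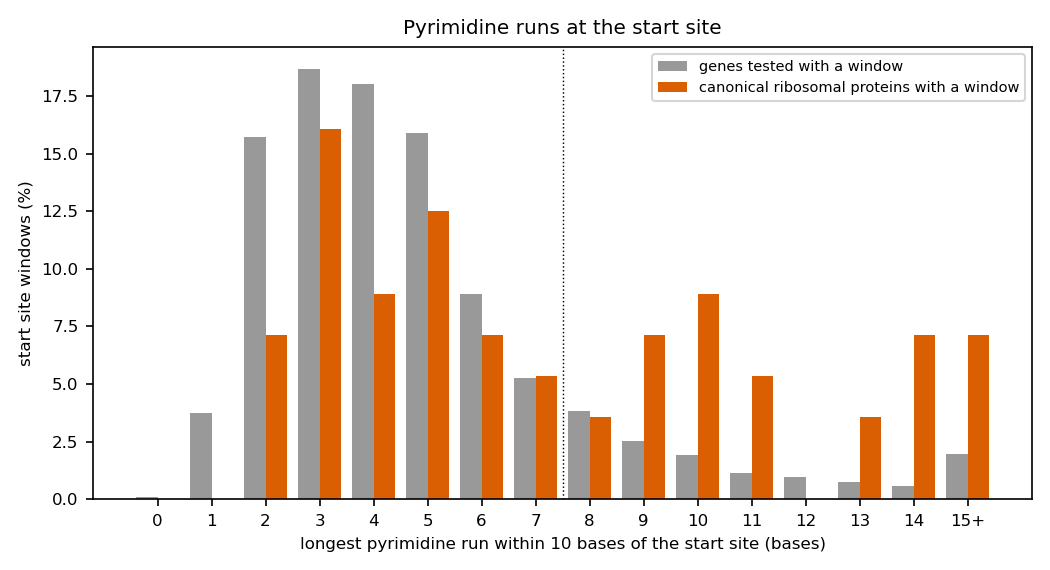
Share of start site windows (%) by the length of the longest pyrimidine run (bases) within 10 bases of the annotated start, for canonical ribosomal protein genes (56 windows, orange) and genes of at least 1 FPKM (9858 windows, grey). To the right of the dotted line, at 8 bases or more, lie 42.9% of the orange and 13.6% of the grey windows.

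Letters that match binding motifs were counted over the 300 bases on both strands. The motif CCGGAAG, bound by ETS factors, was in 23 of 56 canonical windows (41.1%), against 9.12% of all windows and 17.9% of genes at 1 FPKM or more. The SP1 motif GGGCGG was in 33 (58.9%, against 35.9% and 66.0%), the TATA box TATAAA in 5 (8.93%, against 14.2% and 6.54%), and the YY1 motif AAGATGGC in 4 (7.14%, against 2.88% and 4.70%). The mitochondrial ribosomal proteins, a separate family taken up below, had CCGGAAG in 25 of 69 windows (36.2%) and AAGATGGC in 12 (17.4%). They had GGGCGG in 34 (49.3%) and TATAAA in 4 (5.8%). A high share with CCGGAAG is thus not particular to the cytosolic family. The motifs do not contain each other. A GATA motif was sought as AGATAA, as its variant AGATAG, and with another first letter as TGATAA and also as TGATAG. It was in 11 windows (19.6%), against 30.2% of all windows and 17.3% of genes at 1 FPKM or more. The 11 genes are Rpl4, Rpl5, Rpl10, Rpl10a, Rpl24, Rpl36a, Rpl37, Rpl41, Rps4x, Rps6 and Rps26. In the Gata1 library 5 of the 11 were higher, at a median log2 ratio of −0.013, and 29 of the 45 without a match, at a median of 0.012, beside 45.3% and −0.013 for all genes compared. A match is a description of letters and not a bound site. The matches of 3 abundant genes are shown with the motif, or its complement, in capitals. They begin 82 bases before the start in Rpl41, 159 in Rps26 and 55 in Rpl10, whose window holds 2 matches, of which 1 is shown.
Rpl41, chr10:128549233-128549262, minus strand: aaaggtggggctTGATAAcacgcactctag
Rps26, chr10:128626648-128626677, minus strand: atttctagggacTTATCAcaaccctacatt
Rpl10, chrX:74270749-74270778, plus strand: gatcttagcgtcTGATAGagcgtcgacacc

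Ribosomal protein mRNAs were among the most abundant in these cultures. Their share of all FPKM was 7.55% after the control virus and 7.65% after AAV-Gata1. By mean FPKM they held 30 of the top 100 places and 58 of the top 200, and none of the top 10. The mitochondrial ribosomal proteins, a separate family that serves the ribosome inside mitochondria, made up 0.568% and 0.579%. Their median level was 31.9 FPKM, against 434 FPKM for the canonical cytosolic genes.

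Levels differed widely between genes, although most of their products are held once per ribosome. Pairs of values below give the control library first and the Gata1 library second. Rplp1 was highest, with 1536 and 1631 FPKM. Its protein, an acidic member of the stalk that recruits elongation factors, is held in more than a single copy per ribosome. Rps29, a small zinc-binding protein of the small subunit, stood at 1251 and 1238 FPKM. Rpl41, which encodes a very short and basic peptide, stood at 1261 and 1185 FPKM. These 3 were apart from the next, Rps12 (946 and 953 FPKM), which was followed by Rps15 (885 and 845 FPKM), Rps24 (857 and 859 FPKM), Rps26 (826 and 837 FPKM) and Rpl38 (720 and 773 FPKM). The 8 highest genes carried 23.0% and 22.8% of the family's FPKM.

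Within the small subunit the canonical genes ran from 133 FPKM (Rps18) to 1245 FPKM (Rps29) in their means over both libraries, 9.39-fold. Within the large subunit they ran from 92.3 FPKM (Rpl29) to 1584 FPKM (Rplp1), 17.2-fold. Most lay closer together: 65 of the 76 were within 2-fold of their median of 434 FPKM. Small subunit genes had a median of 465 and 466 FPKM, and large subunit genes one of 381 and 404 FPKM. The order of the genes was nearly the same in both libraries (Spearman's rho 0.995 across 76 genes, which are not independent replicates). FPKM divides by transcript length, and its estimate is least certain for the shortest transcripts; transcript lengths were not used here.

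**Figure D2:**
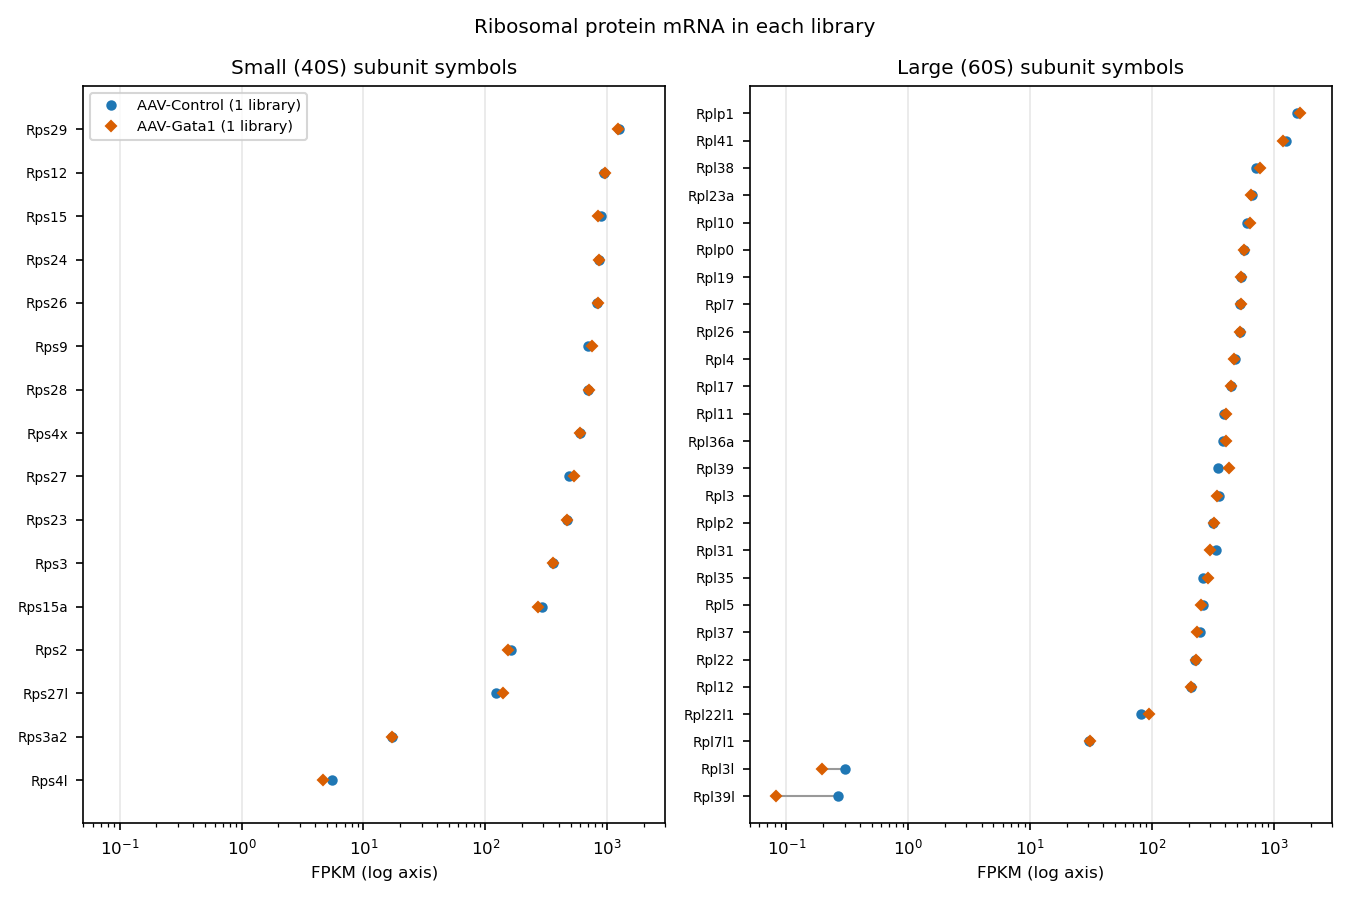
FPKM (log axis) of small subunit symbols (left) and large subunit symbols (right) taken by the rule for named genes in the AAV-Control (blue circles) and AAV-Gata1 (orange diamonds) library, ordered by mean; symbols at 0 in either library are not drawn. They run from Rpl39l, at 0.0818 FPKM in the Gata1 library, to Rplp1, at 1631 FPKM there, and for most the points of both libraries nearly coincide, with Rpl39 among the visible exceptions.

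Differences between the libraries were small. Each difference is the log2 ratio of Gata1 over control after adding 1 FPKM to both, taken where the mean reached 1 FPKM. On this scale 81 of the 87 could be compared, and 6 second copies fell below the minimum. In the Gata1 library 51 of the 81 were higher (63.0%), against 45.3% of all 13740 genes compared, and 30 were lower, against 54.7%. Their median log2 ratio was 0.014, which is 0.945% higher, against −0.013 over all genes. No member was 2-fold apart, against 0.517% of all genes. At least 1.1-fold higher were 4 members, against 10.7% of all genes, and 3 were at least 1.1-fold lower, against 13.7%. Apart in either direction were 7 (8.64%), against 24.4%. Ratios narrow with level: among genes of at least 100 FPKM, 8.39% were 1.1-fold apart, and so were 5 of the 76 members at that level (6.58%), 3 of them higher (5.13% of genes) and 2 lower (3.25% of genes). None of the 76 was 2-fold apart, against 0.751% of genes. At that level 48 of the 76 members were higher and 28 lower, against 48.7% and 51.3% of the 799 genes.

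**Figure D3:**
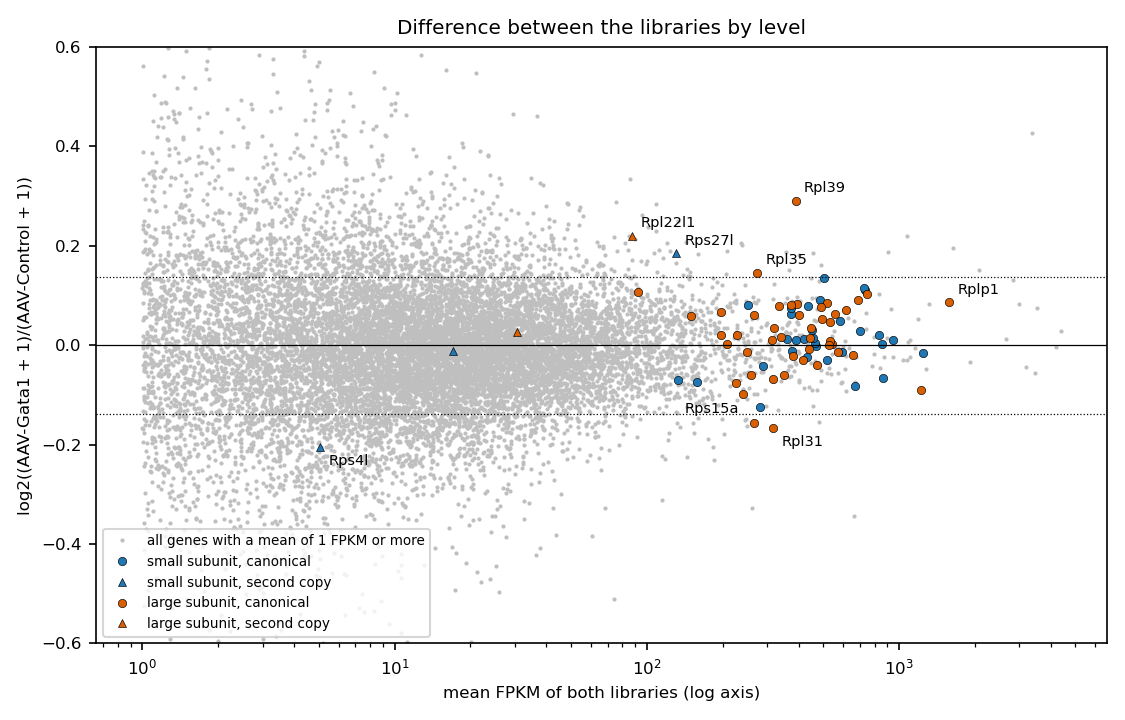
Log2 ratio of the Gata1 to the control library (1 FPKM added to each) against mean FPKM (log axis) for all genes of at least 1 FPKM (grey) and for ribosomal proteins (blue small subunit, orange large subunit, circles canonical, triangles second copies). Dotted lines mark 1.1-fold; Rpl39, Rpl22l1, Rps27l and Rpl35 lie above, Rps4l and Rpl31 below; 166 genes fall outside the plotted range of 0.6 on either side.

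Rpl39 was furthest apart. It encodes a short protein in the wall of the tunnel through which the new peptide leaves the ribosome. It stood at 350 and 428 FPKM, 22.4% higher (log2 ratio 0.29), and went from place 52 to place 40 within the family. The second copies Rpl22l1 (80.5 and 94.0 FPKM, log2 ratio 0.22) and Rps27l (122 and 139 FPKM, 0.19) came next. Rpl35, at the tunnel exit, stood at 260 and 288 FPKM (0.15) and was the last past 1.1-fold. Rps27 followed just inside it, at 482 and 529 FPKM (0.14), and then Rps9, at 695 and 753 FPKM (0.12).

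On the lower side Rps4l had the largest difference, at 5.50 and 4.64 FPKM (log2 ratio −0.20). Among abundant genes Rpl31, a protein of the tunnel exit rim, stood at 335 and 299 FPKM (−0.17). Both were past 1.1-fold. Rps15a (293 and 269 FPKM, −0.12), Rpl37 (249 and 233 FPKM, −0.097) and Rpl41 (−0.091) were inside it.

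The subunits had medians of the same sign. Of 31 canonical small subunit genes 19 were higher, at a median log2 ratio of 0.010, and none was 1.1-fold apart. Of 45 large subunit genes 29 were higher, at a median of 0.020, and 4 were 1.1-fold apart, among them Rpl39, Rpl35 and Rpl31. These 4 are 8.89% of the 45, beside 8.39% of genes of at least 100 FPKM and 24.4% of all genes. Mitochondrial ribosomal proteins numbered 46 higher of 77 (59.7%), their median ratio was 0.034, and 16 (20.8%) were 1.1-fold apart. For all genes these values were 45.3%, −0.013 and 24.4%. They stand at lower levels, where ratios of all genes spread more, and the difference between the families could not be tested.

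**Figure D4:**
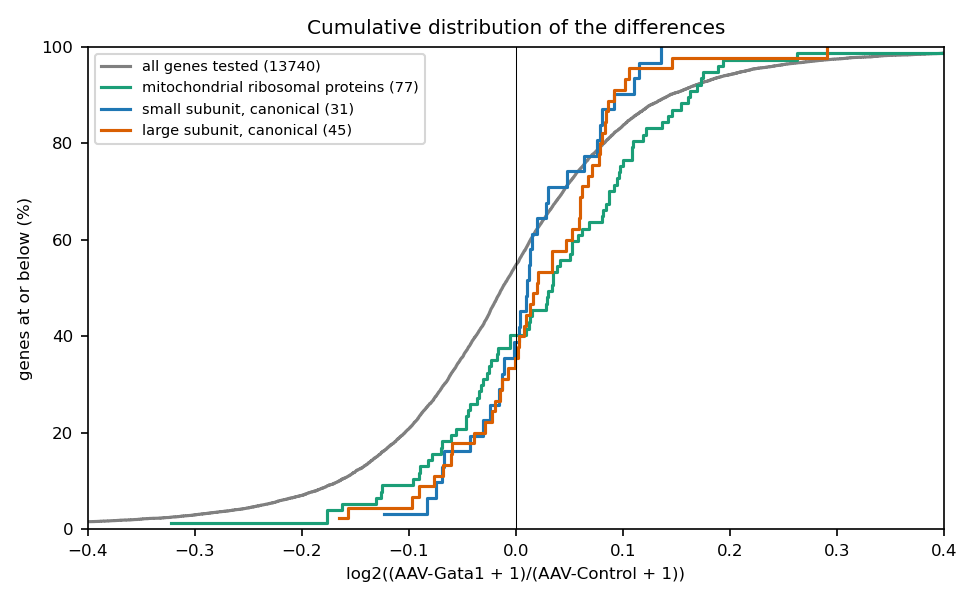
Share of genes (%) at or below each log2 ratio of the Gata1 to the control library (1 FPKM added to each) for canonical small (31) and large (45) subunit genes, mitochondrial ribosomal proteins (77) and all 13740 genes compared. The medians are 0.010, 0.020, 0.034 and −0.013, and the cytosolic curves are steeper than that of all genes.

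The stalk and its base differed little. Rplp1 was 6.18% higher in the Gata1 library. Rplp0, the protein that anchors the stalk, stood at 573 and 568 FPKM. Rplp2, the partner of Rplp1, stood at 317 and 324 FPKM, so the partners differed several-fold in level in both libraries. Rpl12, at the stalk's base, stood at 207 and 207 FPKM.

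Rpl5 and Rpl11 bind the 5S ribosomal RNA and, when ribosome assembly fails, hold back the p53 inhibitor MDM2. Rpl5 stood at 265 and 254 FPKM (log2 ratio −0.060) and Rpl11 at 392 and 408 FPKM (0.060), in opposite directions. Among genes of that pathway Mdm2 stood at 22.6 and 23.3 FPKM. The p53 gene Trp53 stood at 39.99 and 37.3 FPKM and its target Cdkn1a, an inhibitor of the cell cycle, at 44.3 and 41.8 FPKM. Mdm4, a second inhibitor of p53, was at 36.5 and 28.5 FPKM (−0.35). It was the single gene of these 4 past 1.1-fold, beside 24.4% of all genes.

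The 8 genes of the exit tunnel and its rim split evenly, with 4 higher and 4 lower, beside 45.3% of all genes higher. Rpl39, Rpl35 and Rpl31, described above, had the larger differences. Rpl4, whose loop lines the tunnel, stood at 481 and 468 FPKM and Rpl17 at 443 and 448 FPKM. Rpl19 (541 and 542 FPKM), Rpl26 (526.3 and 526.0 FPKM) and Rpl23a (660 and 651 FPKM), at the rim where targeting factors dock, were each within 2% of equal.

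Small subunit proteins near the decoding site and the mRNA channel were higher in 2 of 5 cases, beside 45.3% of all genes. Rps3, at the mRNA entry, stood at 359 and 362 FPKM. Rps23, which reaches into the decoding centre, stood at 468 and 467 FPKM. Rps15 was 4.54% lower, and Rps2 stood at 162 and 154 FPKM.

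Genes mutated in Diamond-Blackfan anaemia in humans numbered 11 higher of 19 (57.9%), with a median log2 ratio of 0.0099. These values were 63.0% and 0.014 for the whole family and 45.3% and −0.013 for all genes. Of genes of at least 100 FPKM, 48.7% were higher. Past 1.1-fold were Rpl35, higher, and Rpl31, lower, against 24.4% of all genes and 8.39% of genes of at least 100 FPKM. The most abundant of the 19 were Rps29, Rps24, Rps26 and Rps28, the last at 696 and 709 FPKM. Rps19, the first gene linked to the disease and named here outside the rule for named genes, stood at 416 and 420 FPKM.

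Of the 4 members on the X chromosome 3 were higher, beside 63.0% of the family and 45.3% of all genes. Rps4x stood at 599 and 593 FPKM, Rpl10, which joins the large subunit late in assembly, at 602 and 633 FPKM, and Rpl36a at 381 and 404 FPKM. Rpl39 is the fourth.

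Second copies were expressed to very different degrees. Rpl22l1 made up 26.3% and 29.1% of the sum of Rpl22 and Rpl22l1, with Rpl22 itself at 226 and 229 FPKM. Rps27l, a p53 target in humans, made up 20.2% and 20.8% of its pair with Rps27. Rpl7l1 stood at 30.3 and 30.9 FPKM, or 5.39% and 5.45% of its pair with Rpl7 (532 and 535 FPKM).

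The copies known from muscle and testis were near or at 0. Rpl3l, the muscle copy of Rpl3, stood at 0.305 and 0.198 FPKM, against 358 and 343 FPKM for Rpl3. Rpl39l, known from testis, stood at 0.266 and 0.0818 FPKM. Rpl10l, also of testis, was listed at 0 in both libraries, and so were Rps12l1 and Rps12l2. Rps3a3 was listed at 0 and 0.173 FPKM. Rps3a2 stood at 17.2 and 17.0 FPKM. It and Rps4l are near-copies of Rps3a1 and Rps4x, and fragments of an abundant gene can be assigned to such a copy.

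For some members, rows named as their pseudogenes held a sizeable level too. Whether these rows hold fragments of the members was not tested. The tables hold 245 rows named as pseudogenes of a member, 154 of them at 0 in both libraries and 35 with a mean of 1 FPKM or more. No source used here says how fragments that match several places were assigned. Pseudogene rows made up over 10% of the summed level for 6 members. Rps2 stood at 162 and 154 FPKM, while Rps2-ps13 stood at 261 and 235 FPKM. Rpl34 stood at 196 and 199 FPKM, while Rpl34-ps1 stood at 234 and 255 FPKM. With the pseudogene rows added, Rps2 came to a mean of 460 FPKM and Rpl34 to 442 FPKM, near the canonical median of 449 FPKM on that scale. Other low members hardly moved: Rpl29 went from 92.3 to 92.5 FPKM and Rps18 from 133 to 134 FPKM. Of the 76 canonical genes 66 were within 2-fold of their median on that scale, beside 65 by member rows alone. For Rpl39, Rpl39-ps held 75.8 and 71.1 FPKM, lower in the Gata1 library while Rpl39 was higher, and the log2 ratio of their sum was 0.23. Rpsa, Rpl3 and Rps24 are the other 3, with 20.4%, 20.4% and 11.5% in pseudogene rows.

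**Figure D5:**
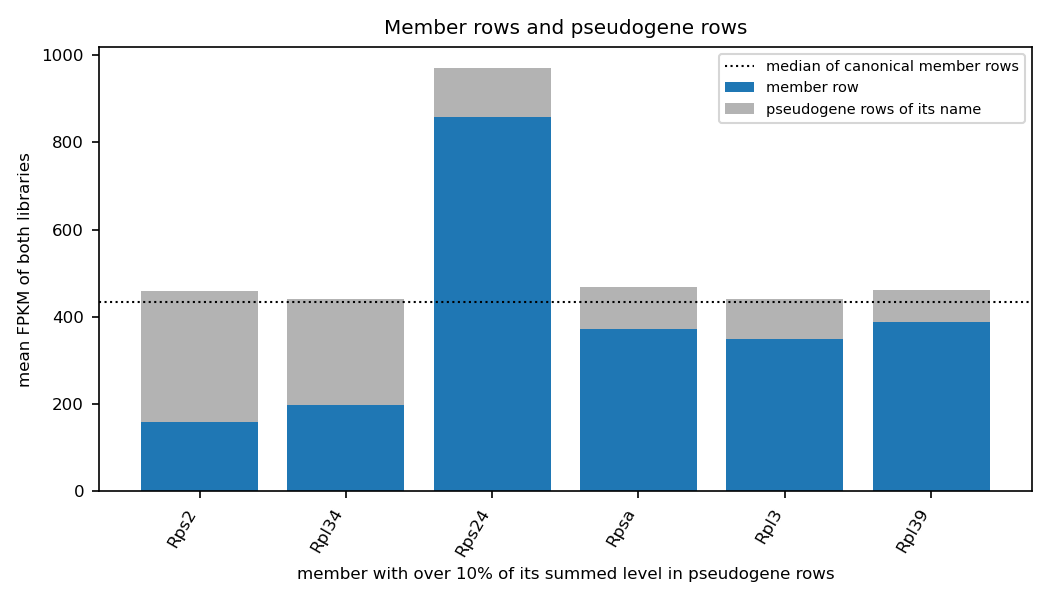
Mean FPKM of both libraries in the row of each member (blue) and in all pseudogene rows of its name (grey), for the 6 members with over 10% of their summed level in pseudogene rows. Rps2 and Rpl34 have more in the grey part than in the blue, and their sums of 460 and 442 FPKM lie near the dotted line, the median of 434 FPKM of canonical member rows.

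Other genes of the ribosome and of translation showed differences of like size. The fusion gene Fau, which encodes a ubiquitin-like protein joined to a small subunit protein, stood at 453 and 469 FPKM. Gnb2l1, the older symbol of Rack1, a scaffold protein on the small subunit, stood at 294 and 284 FPKM. Rpl36al, a copy of Rpl36a that the symbol rule does not take, stood at 149 and 152 FPKM.

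Of 17 other TOP mRNAs, mostly of translation factors, 7 were higher (41.2%) and 10 lower, against 45.3% and 54.7% of all genes. Their median log2 ratio was −0.0066, against −0.013 over all genes. Eef1d, a subunit of the elongation factor exchange complex, was the single gene past 1.1-fold (97.8 and 85.9 FPKM, −0.18). Past that fold were 24.4% of all genes and 8.39% of genes of at least 100 FPKM. The initiation factor subunits Eif3e (105 and 112 FPKM) and Eif3f (61.4 and 57.9 FPKM) followed. Of 32 factors of ribosome assembly 17 were higher (53.1%, against 45.3% of all genes), at a median of 0.0040. Dkc1, the pseudouridine synthase of ribosomal RNA, stood at 16.1 and 13.5 FPKM (−0.24), the export adaptor gene Ltv1 at 10.3 and 11.8 FPKM (0.18) and Nip7 at 12.7 and 14.2 FPKM (0.15).

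RNA polymerase I, which makes the large ribosomal RNA precursor, and its factors were lower in 10 of 14 cases (71.4%), against 54.7% of all genes, at a median log2 ratio of −0.077. The subunit gene Znrd1 stood at 31.4 and 23.8 FPKM (−0.39) and Polr1e at 7.64 and 6.24 FPKM (−0.25), while the factor gene Taf1c was higher, at 4.97 and 5.93 FPKM (0.22). Of these 14 genes 4 were 1.1-fold lower and 2 higher, against 13.7% and 10.7% of all genes.

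Genes of mTORC1 and TOP mRNA control split evenly, with 7 higher and 7 lower, at a median of −0.020. Of all genes 45.3% were higher, at a median of −0.013. The S6 kinase gene Rps6kb2 stood at 11.05 and 9.31 FPKM (−0.22), the mTORC1 inhibitor gene Deptor at 1.25 and 1.09 FPKM (−0.11) and Mtor itself at 11.6 and 10.7 FPKM (−0.10).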

How the data were processed

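Total RNA was taken from the cultures, and mRNA libraries were made with a stranded kit for paired reads of 100 bases, per the labels' protocols. The deposited values are FPKM per gene symbol, per the file headers. The submitters' processing notes list, without roles, the tools TopHat2 2.1.1, Cuffdiff 2.1.1 and Cufflinks 2.1.1 and the builds mm9 and mm10. Counting by strand, the treatment of fragments with several matches and scaling between libraries are not given in the sources used here. Such choices can move FPKM between a gene and its pseudogenes.

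Each table held 40993 rows. The 6 without a symbol were left out, and the highest row per symbol was kept. A search for single-fragment steps in the 1283 lowest rows (above 0, below 0.1 FPKM) found at most 43 at a common log2 ratio, with a tolerance of 0.02, so whole fragments were not recovered and depth is unknown. Differences are log2 ratios with a pseudocount of 1 FPKM where the mean reached 1 FPKM, which understates differences of low genes. With 1 library a group no test was run. A fold of 1.1 served as a rule of size. The summary was tested on simulated data. Start site windows came from RefSeq's GRCm38.p6 table, the first window per symbol.

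Members and lists were chosen with earlier results of these data known. Named are the 8 highest and 8 lowest members by level, the 6 largest differences each way, members of lists of 8 or fewer, the 4 most abundant of longer lists, and, outside the family, all genes of lists of 4 or fewer and the 3 largest differences of longer ones. Genes that carry long pyrimidine runs, GATA motifs or over 10% of their level in pseudogene rows, and the pseudogenes beside them, were named after their values were seen. Some genes that the rule takes are not reported here. Alternatives changed the pseudocount, the minimum, the rows per symbol, the centring and the members. Python 3.11.15, pandas 2.3.3 and numpy 2.4.6 were used.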

Additional observations from a re-analysis of the deposited data

How the results depend on the processing

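The family kept more higher than lower genes, and a median log2 ratio above 0, under each alternative run: a pseudocount of 0.1 FPKM, no minimum, minimum means of 5 and 100 FPKM, summed rows, centring, the mean (0.019), canonical members alone, members without a pseudogene row, and sums with pseudogene rows. The medians ranged from 0.010 to 0.026. A changed pseudocount cannot turn the sign of a ratio, and summed rows change no member, since each has a single row. The minimum of 5 FPKM left out no member compared, as the lowest had a mean of 5.07 FPKM. These alternatives therefore could not test the direction. Fewer genes entered where members were left out. The 24 members without a pseudogene row split nearly evenly, with 13 higher, 11 lower and 2 past 1.1-fold. Of the canonical members 4 were past 1.1-fold. The minimum of 100 FPKM, the canonical members and the pseudogene sums were added after the data were seen. Centring moves every gene by the same 0.013. It made 56 members higher and 25 lower, beside 50% of all genes higher, and among the named members Rpl26, Rps23 and Rps3a2 went from lower to higher. The share of summed FPKM ranged from 7.55% to 7.92% in the control and from 7.65% to 8.03% in the Gata1 library. An alternative by protein length was not run, since protein lengths were not used here. No library could be left out. No paired analysis was possible because each group has 1 mRNA library and no test was run.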

Other observations

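Among the 35 pseudogene rows whose mean reached 1 FPKM, 21 were at least 1.1-fold apart, against 24.4% of all genes and 7 of 81 members. Their median log2 ratio was −0.0066, with 17 higher and 18 lower. Rpsa-ps2, at 3.74 and 1.02 FPKM in the control and Gata1 libraries, and Rpl9-ps4, at 3.49 and 1.47 FPKM, were furthest apart, while their parents Rpsa (364 and 381 FPKM) and Rpl9 (504 and 535 FPKM) were each within 1.1-fold. Rps24-ps3 stood at 104 and 119 FPKM, beside Rps24 at 857 and 859 FPKM. These rows were named after their values were seen.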
